A study of Mus musculus with 2 samples.

Results

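The microRNA genes described here are the 81 hairpin genes, of 2202 listed, whose GENCODE M21 symbols start with Mir297, Mir466, Mir467 or Mir669. Genes of these 4 families sit mainly in a large rodent cluster within the gene Sfmbt2. The tissue sequenced for small RNA was left cerebral cortex from females at 10 days of age, of the strain B6CASTF1/J, which crosses C57BL/6J with CAST/EiJ. There was 1 group of 2 biological replicates, here animal 1 and animal 2, which the labels number as separate females although both carry the same donor entry. No treatment, other genotype or other age was measured, so levels and the spread between the animals are given, and no condition is compared. The counts do not separate the parental alleles.

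A microRNA is a short RNA cut from a hairpin in a longer transcript. It is loaded into an Argonaute protein and represses messenger RNAs that pair with its seed, bases 2 to 8. Sfmbt2 encodes a Polycomb-group protein and is an imprinted gene, known for expression from the paternal allele in early embryos and extraembryonic tissue. The microRNAs of its long intron arose by repeated local duplication in rodents and are best known from the placenta, where deleting the cluster disturbs development.

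Of the 81 genes, 71 lay within Sfmbt2 (ENSMUSG00000061186.15, chromosome 2, 10370510 to 10595253, mm10, plus strand). All 71 were on the strand of Sfmbt2 and in the same intron, intron 10 of a transcript with 23 exons, which runs from 10461473 to 10523944. They spanned 51.6 kb, from Mir466m at 10466663 to Mir669h, which ends at 10518279, with a median gap of 209 bases between neighbours. The other 10 were spread over other chromosomes. Mir466q lay in an intron of Tnik on the same strand. Mir467f, Mir466i, Mir467g, Mir669n and Mir466k lay opposite introns of Fxr2, Cdk13, Grk4, Slc30a7 and Gm37240. Mir466j, Mir467h, Mir297-1 and Mir466f-4 were annotated between genes. By symbol, 35 of the 81 were single-copy and 46 multi-copy, meaning that the symbol ends in a copy number or that another listed gene has the same symbol apart from such a number.

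RefSeq mature sequences (GRCm38.p6) matched 8 of the 81 genes, all outside Sfmbt2. They are shown because each carries a stretch of simple repeat, and because 1 of the 8 genes had reads. Members within Sfmbt2 and other microRNA genes were not examined for such a repeat, so it is not shown to be particular to these 8. The seed, bases 2 to 8, is in capitals.
miR-466q (chr3:28419988-28420007, plus strand): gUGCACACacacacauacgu
miR-467f (chr11:69635419-69635439, minus strand): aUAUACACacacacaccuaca
miR-466i-3p (chr13:17747552-17747573, plus strand): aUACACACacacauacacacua
miR-467g (chr5:34732872-34732892, minus strand): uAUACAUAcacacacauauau
miR-466k (chr3:85467396-85467418, plus strand): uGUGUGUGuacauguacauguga
miR-466j (chr10:60960802-60960824, plus strand): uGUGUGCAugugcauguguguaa
miR-669n (chr3:115979905-115979924, plus strand): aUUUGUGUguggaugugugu
miR-467h (chr9:115381898-115381919, plus strand): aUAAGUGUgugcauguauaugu

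All 8 held a stretch of alternating C and A, or G and U, of 7 (miR-467h, miR-466j) to 12 bases (miR-466q, miR-467f). The seeds of these 8 sequences were all different, also within a family name. The sequences are 1 per gene, so the seed of the other arm of each hairpin was not compared. The matches below were sought for these 8 sequences only, without a background from other microRNAs. Searched on both strands of the 2202 listed hairpins, 7 of the 8 sequences had no exact match in another hairpin. The exception was miR-467h, with 2. With 1 mismatch allowed, only miR-466q had no match elsewhere, while miR-467f matched 14 other hairpins, miR-467g 13, miR-466j 10, miR-466k 9, miR-467h 4, and miR-669n and miR-466i-3p 1 each. Mir466q was the only gene outside Sfmbt2 with reads, 4 in animal 1 and 2 in animal 2. Its whole hairpin was less distinct than its mature sequence: a run of 39 of the 76 bases was also in another listed hairpin. Whether the few reads of Mir466q go with its sequence was not tested. The other 9 genes outside Sfmbt2 had none in either animal.

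Counted reads numbered 3806078 for animal 1 and 2602935 for animal 2. Levels are given as CPM, the reads of a hairpin gene (both arms summed, no scaling by length) per 1000000 counted reads. A count of 0 allows up to 3 counts, which is 0.788 CPM for animal 1 and 1.15 CPM for animal 2. Intervals are exact Clopper-Pearson 95% intervals, and they and these limits cover counting error only. The 13 neuron-enriched microRNA genes listed for the tissue check summed to 41080 and 41910 CPM in animals 1 and 2, against 119 and 94.5 CPM for 10 genes of liver, muscle, red blood cells and pluripotent cells. These sums hide a wide spread: mean CPM over the 13 had a median of 172.6 and reached 16210. At 10 CPM or more in both animals stood 9 of the 13 and 2 of the 10. In the tissue as a whole, fewer cells making a microRNA and less of it per cell cannot be told apart.

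The families held a minor part of the reads counted to single hairpins, and nearly all of these came from a few hairpins of the Mir467 and Mir669 families. Reads that fit several positions enter no gene's count, so the share is not that of all their microRNAs. Together the 81 genes had 7362 reads in animal 1, or 0.193% of counted reads (95% interval 0.189 to 0.198), and 4505 in animal 2, or 0.173% (0.168 to 0.178). The mean was 0.183% ± 0.0144 (SD, n = 2). Of the 81 genes 12 had a read in either animal and 69 had none, while 35.0% of all listed genes had a read. At 10 CPM or more in both animals, the threshold used here for detection, stood 6 of the 81 (7.41%), against 13.9% of all listed genes.

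The split by copy was sharp. All 6 detected genes were single-copy, and single-copy genes held 7360 of the 7362 reads in animal 1 and all 4505 in animal 2. Of the 35 single-copy genes 11 had a read and 6 (17.1%) were detected, near the background for single-copy symbols of the whole list, 34.6% with a read and 13.1% detected. Of the 46 multi-copy genes 1, Mir297a-2, had a read, and 0 were detected. Among all multi-copy symbols of the list, these 46 included, 40.0% had a read and 26.0% were detected. Among the other 104 multi-copy symbols 56.7% had a read and 37.5% were detected. These are counts beside a background, without a test. The position split was as uneven: the 71 genes within Sfmbt2 held 7358 and 4503 of the reads, the 10 outside 4 and 2. Within Sfmbt2, 6 of 27 single-copy genes and 0 of 44 multi-copy genes were detected. Outside, 0 of 8 and 0 of 2 were.

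**Figure D1:**
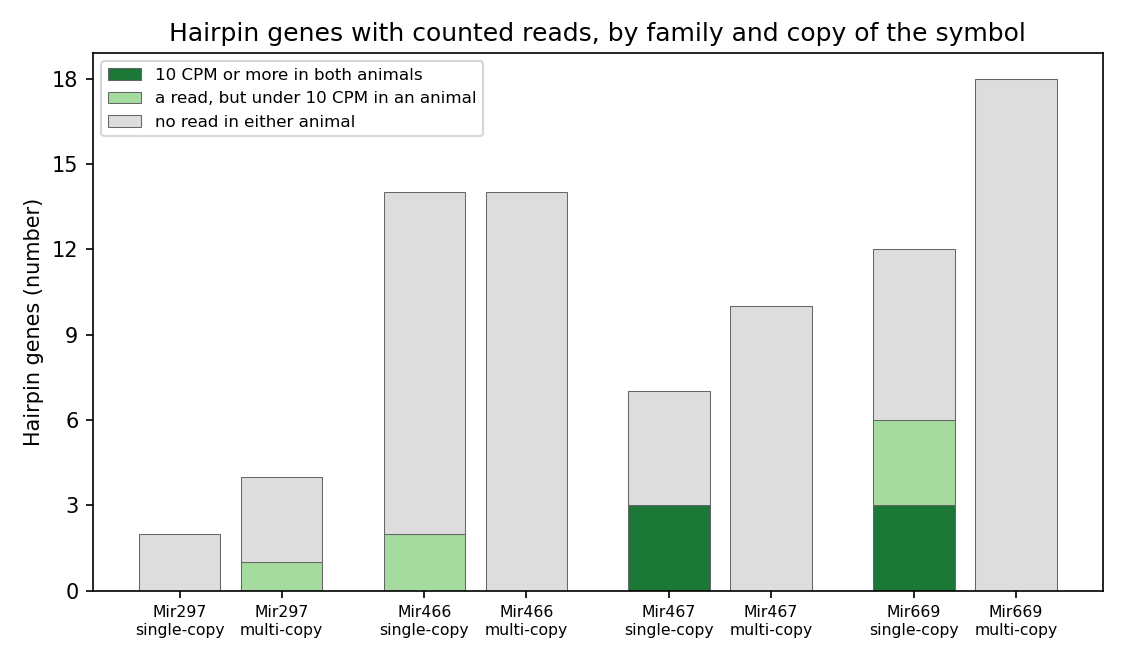
Number of hairpin genes in each family, split into single-copy and multi-copy symbols, with the bar divided into genes at 10 CPM or more in both animals, genes with a read but under 10 CPM in an animal, and genes without a read. The 6 detected genes are single-copy members of Mir467 and Mir669, and of the 46 multi-copy genes 1, in the Mir297 family, has a read.

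The families differed in the same manner. The Mir467 family, named in cultured cells as a repressor of the antiangiogenic matrix protein thrombospondin 1, held 5045 reads in animal 1 and 2777 in animal 2, from 3 of its 17 genes. This was 68.5% and 61.6% of the reads of the 4 families. The Mir669 family held 2307 and 1725 reads, from 6 of its 30 genes. Its Mir669a copies, known from work on cardiac progenitor cells, had no counted read in either animal. The Mir466 family had 8 and 3 reads, from 2 of its 28 genes. The Mir297 family had 2 and 0 reads, from 1 of its 6 genes. Gene number and reads did not run in parallel: Mir466 had more genes than Mir467 and fewer than 10 reads in each animal.

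Mir467d was the leading member. This hairpin gene (ENSMUSG00000077021.2, chromosome 2, 10507630 to 10507714) had 3707 reads in animal 1, or 974 CPM (95% interval 943 to 1006), and 1906 in animal 2, or 732 CPM (699.8 to 766). Its mean, 853 CPM ± 171 (SD, n = 2), ranked 113 among the 2202 listed genes. It alone held 50.4% of the reads of the 4 families in animal 1 and 42.3% in animal 2.

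The next levels followed at some distance. Mir669c (10509296 to 10509404) had 1426 and 942 reads in animals 1 and 2, or 375 CPM (355.5 to 395) and 362 CPM (339 to 386). Mir467e (10505721 to 10505807) had 1094 and 764 reads, or 287 CPM (271 to 305) and 293.5 CPM (273 to 315). For both genes the animals' intervals overlapped on the CPM scale, and their means were 368 ± 9.03 and 290.5 ± 4.30 (SD, n = 2). Mir669o (10514300 to 10514395) had 560 and 484 reads, 147 CPM (135 to 160) in animal 1 and the higher level, 186 CPM (169.7 to 203), in animal 2.

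Both other detected genes stood under 100 CPM. Mir669l (10468971 to 10469068) had 276 and 199 reads in animals 1 and 2, or 72.5 CPM (64.2 to 81.6) and 76.5 CPM (66.2 to 87.8). Mir467c (10473931 to 10474027) had 244 and 107 reads, or 64.1 CPM (56.3 to 72.7) and 41.1 CPM (33.7 to 49.7), lower in animal 2. The order Mir467d, Mir669c, Mir467e, Mir669o, Mir669l, Mir467c was the same in both animals. Each neighbour's range over the animals was clear of the next, but the intervals of Mir669l and Mir467c overlapped in animal 1, where Mir669l had 1.13 times as many reads as Mir467c. The widest of the steps between neighbours was Mir467d over Mir669c in animal 1, at 2.60 times as many reads (2.02 in animal 2), and Mir669o over Mir669l in animal 2, at 2.43 (2.03 in animal 1). The 6 detected genes had a median of 228.5 CPM, against 329 CPM over all 307 detected genes of the list.

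Below the threshold, 6 genes had reads. Mir669e (10467495 to 10467613) was just under it, with 34 reads or 8.93 CPM (6.19 to 12.5) in animal 1, and above it in animal 2, with 84 reads or 32.3 CPM (25.7 to 39.95). Mir669h (10518155 to 10518279), the last hairpin of the cluster, had 11 and 14 reads, or 2.89 and 5.38 CPM. Both of these belong to the Mir669 family, and so does Mir669f, with 0 and 2 reads. Mir466n and Mir466q had 4 reads each in animal 1 and 1 and 2 in animal 2, and Mir297a-2 had 2 and 0. Counts of 4 or fewer are near the 3 that a count of 0 allows, so no order is read among these 4 genes.

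**Figure D2:**
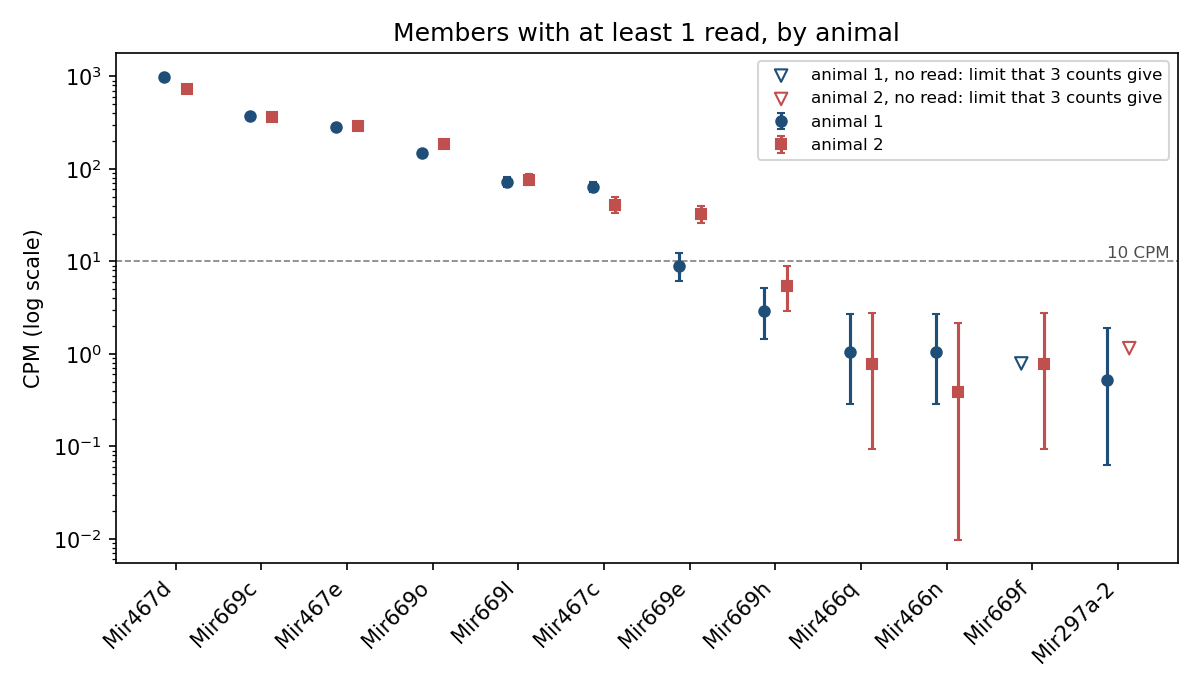
CPM (log scale) of the 12 members with at least 1 read, circles for animal 1 and squares for animal 2, with exact 95% intervals. Open triangles mark the limit of 3 counts where an animal had no read, and the dashed line is 10 CPM. Mir467d is highest in both animals, 6 members are above the line in both, and Mir669e is above it in animal 2 only.

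The 24 single-copy genes without a read in either animal included hairpins beside the detected ones. Mir466, Mir466p, Mir297c, Mir297b, Mir466d, Mir466g, Mir466h, Mir466l and Mir669i lie downstream of Mir467e. Mir466h, reported to promote apoptosis in nutrient-starved cultured cells, and Mir466l, reported to stabilise interleukin-10 mRNA in macrophages, thus had no counted read. Their limits, 0.788 CPM in animal 1 and 1.15 CPM in animal 2, hold for counted reads and leave out reads that fit several positions. Mir466m, Mir669b and Mir466o lie upstream of Mir467c. Mir669k, Mir669g, Mir669j, Mir466e and Mir467b lie between Mir467c and Mir467e. The remaining 7 are the single-copy genes outside Sfmbt2 other than Mir466q. Sfmbt2 also holds 48 other listed microRNA genes whose symbols start with none of the 4 family names. Of these 2 had a read, Gm22072 and Gm25263, each 1 read in animal 2.

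Counted reads lay at both ends of the cluster and not in its middle. The 20 hairpins from Mir467e to Mir669h, over 12.6 kb, held 6802 and 4111 reads, or 92.4% and 91.3% of the reads of the 4 families in animals 1 and 2. The 13 hairpins from Mir466m to Mir467c, over 7.37 kb, held 556 and 392 reads. Between Mir467c and Mir467e, 38 hairpins over 31.7 kb had no read in either animal. These limits were placed by the counts themselves, so the empty middle is a description. Reads that fit several positions were not counted, so the counts do not show where all reads of the cluster arose. The middle is where many copies recur at a similar pitch, with some wider steps. The 10 Mir467a copies start a median of 2462 bases apart (at most 4880). The 8 Mir466b and 12 Mir669a copies within the intron start a median of 2470 (at most 9795) and 2457 bases apart (at most 6373). Of these copies Mir669a-2 lies outside the middle, downstream of Mir467e. Of the 38 hairpins in the middle 33 were multi-copy by symbol and 5 single-copy.

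How far each hairpin can be told from the others by sequence was measured on the GENCODE M21 hairpin sequences. Every 22-base window of a hairpin, about the length of a mature microRNA, was looked up on both strands of the other 2201 listed hairpins. Of the 81 members 32 had no window of their own, 47 had some, and 2, Mir466g and Mir669n, shared none. Among all other listed genes 85.8% had a window of their own, against 60.5% of the members. Some hairpins were identical: the 81 genes have 63 distinct hairpin sequences. Mir669a-4 to Mir669a-12 are 9 identical copies, Mir467a-2, Mir467a-4, Mir467a-5, Mir467a-7, Mir467a-8 and Mir467a-9 are 6, and Mir467a-3, Mir467a-6 and Mir467a-10 are 3.

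All reads of the 4 families were on hairpins with a window of their own. The 32 hairpins without one had 0 reads in both animals, which the counting rule largely set in advance. A 22-base read from them also fits another listed hairpin, and reads that fit several positions enter no gene's count. Of these 32 hairpins 31 were multi-copy by symbol, the exception being Mir466e, and 31 lay between Mir467c and Mir467e. Among the 49 members with such a window, 12 had a read and 6 were detected (12.2%), while of the other listed genes with one 40.3% had a read and 15.7% were detected. Of the 302 other listed genes without one, 25 had a read, and 21 of these 25 overlap another listed gene in the genome.

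The detected hairpins were not the most distinct ones. Mir467d, the highest, had 25 of 64 windows to itself (39.1%), and its longest run shared with another hairpin was 60 of its 85 bases. Mir467c had 63.2% of its windows to itself, Mir467e 59.1%, Mir669o 58.7%, Mir669l 53.3% and Mir669c 83.0%. Among members without any read, 37 had windows of their own. These included Mir466g and Mir669n, with every window their own, Mir466h at 96.7%, Mir466f-4 at 92.0%, Mir669b at 89.5% and Mir466l at 89.0%. Mir669e, which had reads but was not detected, had 96.9%. The median share of own windows was higher over the 12 members with a read, 59.0%, than over these 37 without, 41.5%. A window of its own thus went with reads in some hairpins and with none in others. Whether a larger share of own windows goes with reads was not tested. Windows were compared with listed hairpins only, so a hairpin's own window may still recur elsewhere in the genome. Which windows the counted reads came from was not tested.

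Reads that fit several positions of the genome stand in a separate row of each table, and made up 42.7% of all reads in animal 1 and 40.4% in animal 2, or 4850682 and 3454278 reads. How many of them fit these hairpins was not analysed here. How large their part in the zero counts is was not tested. A zero, in single-copy and multi-copy genes alike, is a count of reads given to that hairpin and not a measure of the microRNA.

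**Figure D3:**
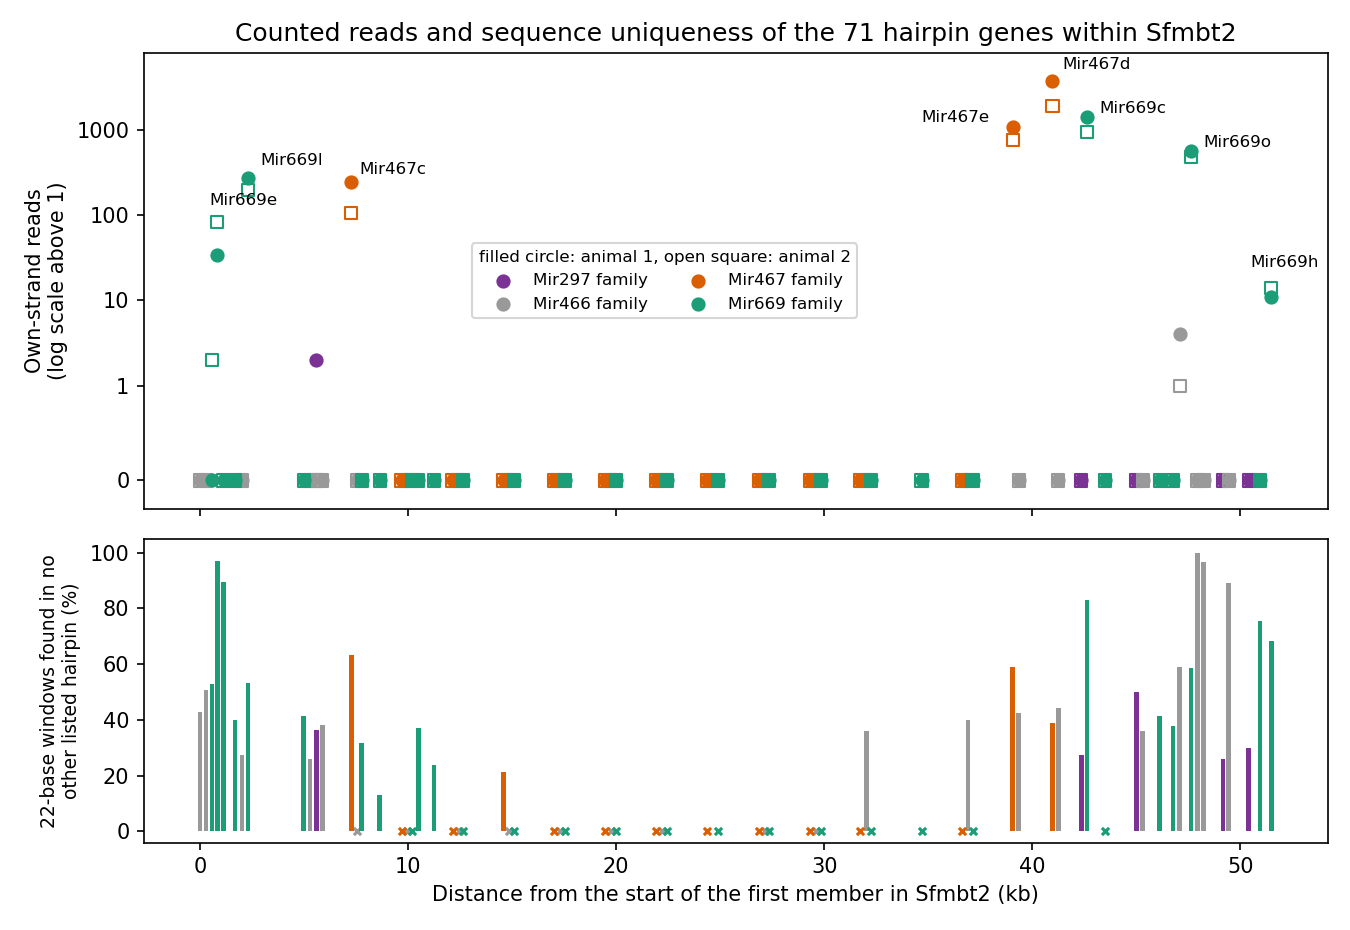
Upper panel, own-strand reads (log scale above 1) of the 71 hairpin genes within Sfmbt2 by distance in kb from the start of the first one, filled circles for animal 1 and open squares for animal 2. Lower panel, the percentage of each hairpin's 22-base windows found in no other listed hairpin, with crosses at hairpins without one. Counted reads lie at both ends, and the 38 hairpins between Mir467c and Mir467e have none and mostly no window of their own.

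After TMM scaling, most of the better-covered members differed between the animals by more than counting error. The differences were under 2-fold except in Mir669e and in Mir669h, and that of Mir669h was not beyond counting error. The libraries were compared by an exact conditional binomial test on counts after TMM scaling, adjusted by Benjamini-Hochberg over the 531 genes with at least 10 summed reads. It compares these 2 libraries, not conditions, and sees counting error only. Of the 8 members tested 6 passed at 0.05, where 51.6% of all tested genes did. Of the 8, 2 were higher in animal 1, against 26.9% of all tested genes, and 4 in animal 2, against 24.7%. With library totals in place of TMM, 67.5% of all calls were higher in animal 1, against 52.2%. The median absolute log2 ratio was 0.36 over the 8 members and 0.51 over all 531 genes, and a difference of at least 2-fold was found in 2 of the 8 and in 23.7% of the 531.

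Both members higher in animal 1 were of the Mir467 family. Mir467d had a log2 ratio, animal 1 over animal 2, of 0.21 (95% interval 0.13 to 0.29, adjusted p = 8.1e-07 in the exact binomial test). Mir467c had 0.43 (0.10 to 0.78, adjusted p = 0.020, exact binomial test). The third detected member of that family went the other way: Mir467e stood at -0.23 (-0.37 to -0.10, adjusted p = 0.0016, exact binomial test), and with library totals only at -0.03 (adjusted p = 0.78, exact binomial test). Mir467d and Mir467e are separated by Mir466p alone among the members, and the intervals of their ratios did not overlap.

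The members higher in animal 2 were otherwise Mir669 genes. Mir669e differed most, with a log2 ratio of -2.04 (95% interval -2.68 to -1.47, adjusted p = 3.8e-13, exact binomial test), a 4.12-fold difference resting on 34 and 84 reads. Mir669o stood at -0.54 (-0.72 to -0.36, adjusted p = 6.8e-09, exact binomial test). Mir669c stood at -0.15 (-0.27 to -0.03, adjusted p = 0.025, exact binomial test), but at 0.05 (adjusted p = 0.54) with library totals only, so its direction depends on the scaling. With no filter on low counts it stood at -0.10 and did not pass either (adjusted p = 0.21, exact binomial test). Mir669l, at -0.28 (-0.55 to -0.01, adjusted p = 0.076, exact binomial test), and Mir669h, at -1.09 (-2.38 to 0.15, adjusted p = 0.11, exact binomial test), did not pass, and Mir669l passed with DESeq2 size factors (adjusted p = 0.030, exact binomial test).

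**Figure D4:**
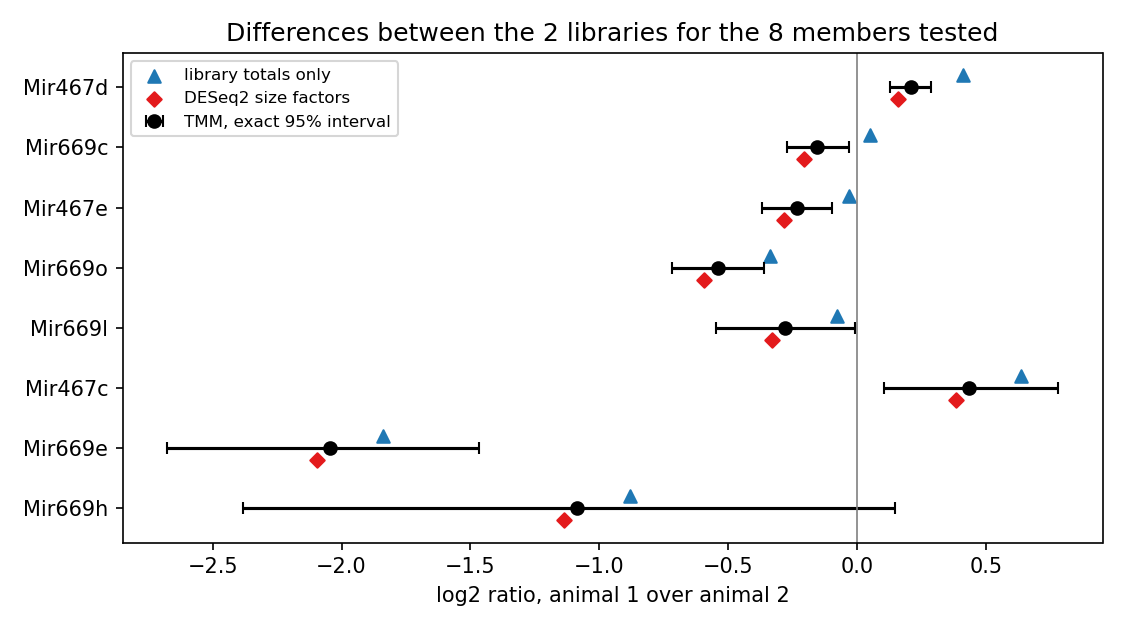
Log2 ratio of animal 1 over animal 2 for the 8 members with at least 10 summed reads, black points after TMM with exact 95% intervals, triangles with library totals only and diamonds with DESeq2 size factors. Mir467d and Mir467c lie above 0 under each of these scalings, Mir669e, Mir669o, Mir669l, Mir669h and Mir467e below, and Mir669c changes side with library totals only.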

How the data were processed

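Per the labels, libraries were made from total RNA by a multiplexed microRNA protocol with a size range under 30. The authors deposited raw read counts for 2202 microRNA hairpin genes, 1 table per library, with mm10 and annotation M21 per the notes beside the tables. Neither aligner nor counter is given in the sources used here. Of 3 columns of counts (both strands, own strand, opposite strand) the own-strand one was used. The 4 rows that name no gene (66.5% and 69.6% of all reads in animals 1 and 2) entered neither library sizes nor tests.

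Symbols, coordinates and hairpin sequences came from GENCODE M21, mature sequences from RefSeq. TMM factors (edgeR 4.0.16, R 4.3.3; DESeq2 1.42.0 gave the alternative size factors) were 1.07 and 0.932. Log2 ratios add 0.5 to each count. Python 3.11.15 with scipy 1.17.1 was used. The test was tested on simulated counts. Named are members detected at 10 CPM in both animals, members passing the test, the highest multi-copy and outside members, and those just below detection. Members, lists and tests were chosen with earlier results of these data known, and the window search and its limits after seeing the counts. Mature sequences and windows were searched in listed hairpins only, and seed groups were limited to the 8 genes with a mature sequence.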

Additional observations from a re-analysis of the deposited data

Results flagged for a closer look

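Reads that fit several positions, which enter no gene's count, were 42.7% of all reads in animal 1 and 40.4% in animal 2. They were singled out because they are data outside the gene counts used above.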

How the results depend on the processing

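For the summary results, leaving out an animal aside, 20 values recomputed under other settings stayed within 1.5 times (counts) or 1 SD (levels) of the reported value, and 3 did not. These were the share of the 4 families, 0.0588% with all reads of the library as denominator, the members higher in animal 2, 2 in place of 4 with library totals only, and the mature sequences without a match in another hairpin, 1 in place of 7 with 1 mismatch allowed. Some of the 20 could hardly move. The count of detected genes over single-copy symbols was fixed, since all 6 are single-copy. Own-strand and unstranded reads of the members differed only at Mir297a-4. Leaving out 1 animal gives the other animal's value, a share of 0.173 to 0.193% and 6 to 7 members at 10 CPM, which is no check of stability; at 1 CPM there were 8 and at 100 CPM 4. Members called numbered 4 with library totals only, 7 with DESeq2 size factors, 5 with no filter on low counts and 6 in the unstranded column. Of the 8 tested members only Mir669c changed sign (0.0497, library totals only). That scaling placed the median log2 ratio of all 531 genes at 0.25, against 0.04 with TMM and -0.01 with DESeq2 size factors, so all ratios move with it. The cause of these changes was not tested beyond the scaling itself. Windows of 20 and 18 bases, chosen after seeing the data, left 49 members with a window of their own, as did 22. Single-copy status by mature sequence was not run, since 8 members had one. By windows of their own, all their reads stayed in, which the counting rule largely set, against 99.99% by symbol. No paired analysis was possible because there is 1 group. Members under 10 summed reads were left out of the test by the filter; without it, 4 of them entered and none passed.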

Other observations

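Opposite-strand reads were nearly absent from these hairpins. Of 308859 opposite-strand reads in animal 1 none fell on the 81 genes, and of 159095 in animal 2 there were 3, all on Mir297a-4, which had no read on its own strand.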
